A study of Homo sapiens with 11 samples.

Results

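Replacement histone variants are histones that enter chromatin outside DNA replication, in place of the canonical histones of the clustered HIST genes. The 7 genes described here are H2AFZ, H2AFX, H2AFY, H2AFV, H2AFJ, H3F3A and H3F3B, chosen by symbol from the 58699 genes of the total RNA table, and all 7 were found and tested in every comparison. H2AFZ and H2AFV encode the 2 forms of H2A.Z, and H3F3A and H3F3B encode the same H3.3 protein. Total RNA was sequenced from HCT116 cells, an established line of human colorectal cancer, in 4 groups of 2 libraries. The siRNA was either siLuc, the control that targets luciferase, or siStau1, which targets Staufen1, and each was combined with the solvent DMSO or with 500 nM decitabine (DAC) for 5 days. DAC is a nucleoside drug that reduces methylation of DNA. All 4 groups were therefore transfected, and siStau1 is a knockdown, not a loss, of the RNA-binding protein Staufen1, whose own transcript is STAU1. Below, values for the 4 groups are given in one order: siLuc with DMSO, siLuc with DAC, siStau1 with DMSO, siStau1 with DAC. STAU1 was at 35.5, 33.7, 29.98 and 27.1 FPKM, a unit of level explained below, so its RNA was little lower in the siStau1 groups (deposited q = 0.767 in DMSO and 0.685 in DAC). The knockdown is therefore taken from the labels.

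Canonical histone mRNAs are made in S phase from clustered genes and end in a conserved stem-loop instead of a poly(A) tail. Replacement variant genes mostly make spliced, polyadenylated mRNAs and are expressed outside S phase too. H2A.Z is placed at promoters and enhancers by the SRCAP and EP400 complexes, and H3.3 by HIRA or by DAXX with ATRX. H2A.X is the form whose tail is phosphorylated by ATM, ATR and DNA-PK around DNA breaks. MacroH2A, from H2AFY, carries a large extra domain and is abundant on the inactive X chromosome. H2A.J differs from canonical H2A mainly in its last residues.

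The level unit is FPKM, fragments scaled to transcript length and to library size, which can be compared between genes. The deposited table holds 1 FPKM per group and none per library. The spread between replicates and the depth are therefore not known. A gene was called changed where the q-value in the authors' deposited table, an adjusted p-value from the program Cuffdiff, was under 0.05. Differences are log2 ratios of these levels, after adding a pseudocount of 0.1. The labels do not say whether the 2 libraries of a group came from separate cultures, so the p-values may measure technical spread. Colon epithelium markers fitted the cell line only in part: 7 or 8 of 10 reached an FPKM of 1, with KRT8 at 1103 FPKM in siLuc DMSO, while VIL1 and CEACAM5 stayed under 1 in every group. Of 10 markers of other cell types, 1 to 3 reached an FPKM of 1, and their summed level was 4.50, 26.9, 2.36 and 22.1 FPKM in the 4 groups, so it was higher with DAC. Its part in the results was not tested. The blood cell marker PTPRC was listed at 0 without DAC and stayed under 1 with it.

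The variant genes differed widely in level. H3F3B was the highest in every group, with 1149, 1057, 973 and 963 FPKM. H2AFZ followed with 838, 379, 556 and 524 FPKM. H3F3B ranked between 87 and 97, and H2AFZ between 133 and 222, among protein-coding genes ordered by level. In siLuc DMSO the middle of the order was H2AFV at 139.6 FPKM, next to H2AFY at 137.9, then H2AFX at 51.3 and H3F3A at 37.0, with H2AFJ lowest at 12.4. Without values per library it cannot be said which neighbours in this order differ beyond their spread. The order differed with DAC: in siLuc DAC, H2AFX at 146 FPKM stood above H2AFY at 121 and H2AFV at 66.8, and H2AFJ at 32.6 stood above H3F3A at 16.9. Together the 7 genes summed to 2365, 1820, 1856 and 1824 FPKM. The higher sum in siLuc DMSO came mainly from H2AFZ, which held 35.4% of it there and 20.8%, 29.95% and 28.7% in the other groups.

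**Figure D1:**
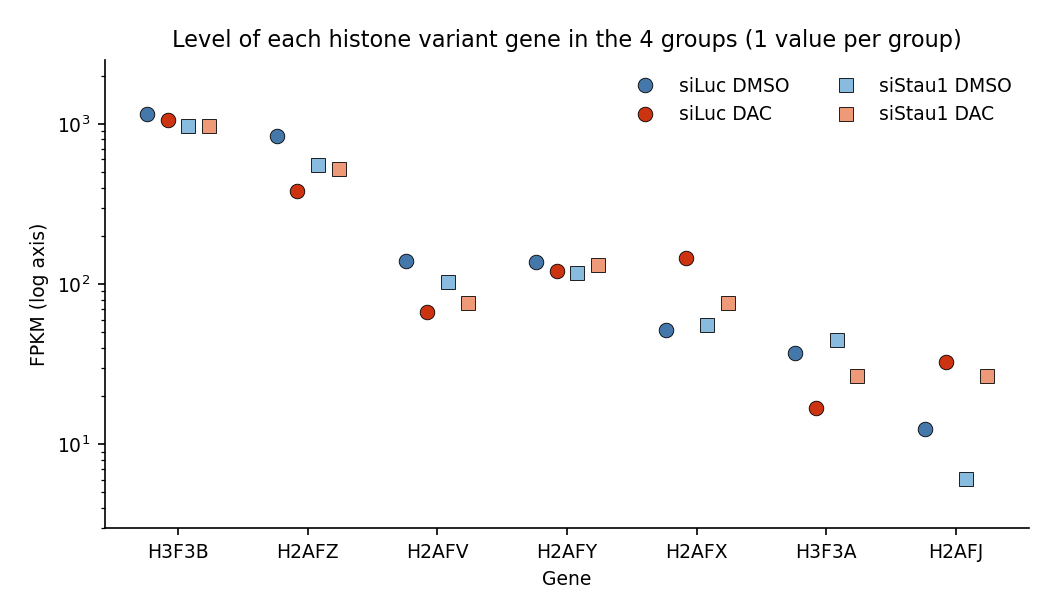
FPKM of each variant gene on a log axis, 1 point per group (circles siLuc, squares siStau1), with genes ordered by their level in siLuc DMSO. H3F3B and H2AFY vary little between groups (1.19-fold and 1.18-fold from lowest to highest), while H2AFJ spans 5.37-fold and H2AFX 2.84-fold.

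In control cells, DAC went with lower H2AFZ and higher H2AFX. H2AFZ fell by 1.14 on the log2 scale, from 838 to 379 FPKM (deposited q = 0.00732). H2AFX rose by 1.51 on the log2 scale, from 51.3 to 146 FPKM (deposited q = 0.00162). That q is the smallest in the table, set by the smallest Cuffdiff p of 5e-05, and other genes share it, DEK and NPM1 among them. H2AFZ and H2AFX were 2 of 7 genes called, 1 higher and 1 lower. Of the 17504 genes tested, 13.5% were called, 8.71% higher and 4.78% lower. For the 7 genes the median ratio on the log2 scale was −0.19, beside 0.08 over all genes that reached an FPKM of 1 in each of the groups compared. A further 3 members had log2 ratios beyond 1 in size without passing: H2AFV at −1.06 (139.6 to 66.8 FPKM, deposited q = 0.0929), H3F3A at −1.13 (37.0 to 16.9 FPKM, deposited q = 0.112) and H2AFJ at 1.38 (12.4 to 32.6 FPKM, deposited q = 0.0757). At an unadjusted p under 0.05, which 28.9% of all genes met, 5 of 7 would be counted. H2AFJ also passed when p-values were adjusted within this comparison alone (q = 0.0428). H3F3B (log2 ratio −0.12, deposited q = 0.921) and H2AFY (−0.19, deposited q = 0.847) were not called.

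In siStau1 cells no member was called with DAC, where 7.46% of 16979 genes were, 4.56% higher and 2.89% lower. H2AFJ had the largest ratio, 2.12 on the log2 scale, from 6.08 to 26.8 FPKM (deposited q = 0.0764). No other member had an unadjusted p under 0.05, which 19.0% of all genes met. H2AFZ stood at 556 and 524 FPKM (log2 ratio −0.09, deposited q = 0.932). H2AFX stood at 55.2 and 76.0 FPKM (log2 ratio 0.46, deposited q = 0.564). For H2AFZ, then, the siStau1 levels with and without DAC both lay between the siLuc levels, and for H2AFX they did too. H3F3A was at 44.7 and 26.6 FPKM (log2 ratio −0.75, deposited q = 0.315), H2AFV at 103.6 and 76.6 (−0.43), H2AFY at 117 and 131 (0.16), and H3F3B at 973 and 963 (−0.02).

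Knockdown without DAC left no member called, where 0.799% of 15893 genes were, 0.333% higher and 0.466% lower. No member had an unadjusted p under 0.05 either, beside 4.30% of all genes. The lowest ratios were those of H2AFJ, −1.02 on the log2 scale (12.4 to 6.08 FPKM, deposited q = 0.496), and H2AFZ, −0.59 (838 to 556 FPKM, deposited q = 0.340). H3F3A had the highest ratio, 0.27 (37.0 to 44.7 FPKM, deposited q = 0.792).

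Knockdown under DAC gave 1 called member, H2AFX, which fell by 0.94 on the log2 scale, from 146 to 76.0 FPKM (deposited q = 0.0372). Among all 17263 genes tested, 0.904% were called, 0.434% higher and 0.469% lower. H2AFX was also the 1 member with an unadjusted p under 0.05, which 6.95% of all genes met. The call depended on the pool of tests: the deposited q adjusts over all 6 comparisons, and adjustment within this comparison gave 0.343. H3F3A had a log2 ratio of 0.65 (16.9 to 26.6 FPKM, deposited q = 0.494) and H2AFZ of 0.47 (379 to 524 FPKM, deposited q = 0.487). H2AFJ stood at 32.6 and 26.8 FPKM (−0.28, deposited q = 0.806).

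**Figure D2:**
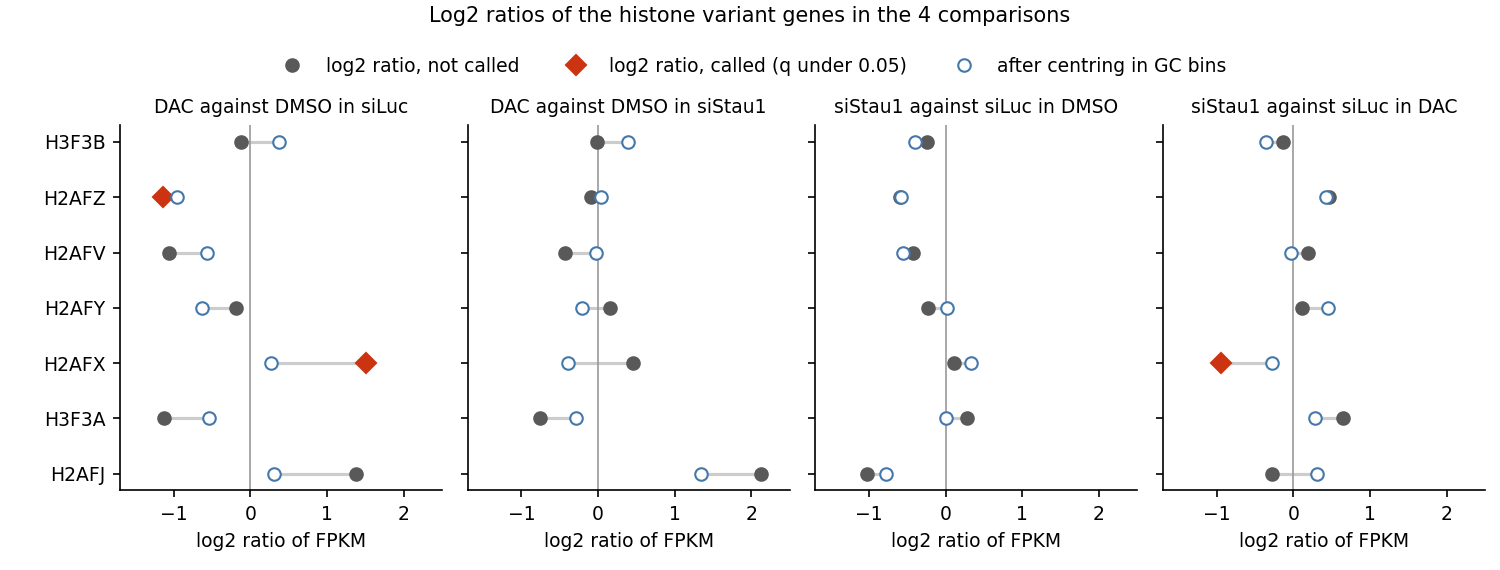
Log2 ratios of FPKM for the 7 genes in 4 comparisons: filled circles are ratios not called, red diamonds ratios called at a q-value under 0.05, and open circles the same ratios after subtracting the median of coding genes of like GC content. The 3 diamonds are H2AFZ at −1.14 and H2AFX at 1.51 (DAC in siLuc) and H2AFX at −0.94 (siStau1 in DAC), and the open circles of H2AFX lie nearer 0 at 0.27 and −0.28.

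Between siStau1 cells with DAC and siLuc cells with DMSO, no member was called, where 4.98% of 16909 genes were. H2AFZ (log2 ratio −0.68), H2AFV (−0.86) and H2AFJ (1.10) had an unadjusted p under 0.05, which 13.6% of all genes met. The DAC ratio was compared between the siRNAs as a difference of log2 ratios, siStau1 minus siLuc, which has no test in these data. It was 1.06 for H2AFZ, 0.74 for H2AFJ, 0.63 for H2AFV, 0.38 for H3F3A, 0.35 for H2AFY, 0.10 for H3F3B and −1.04 for H2AFX. Over the 15956 genes tested in both, the median difference was −0.02 and the quartiles were −0.44 and 0.37. H2AFZ, H2AFJ, H2AFV and H3F3A lay above the upper quartile, H3F3A barely (0.376 against 0.368), and H2AFX below the lower one. After subtracting medians of coding genes of like GC content, the difference was 1.00 for H2AFZ, 1.03 for H2AFJ and 0.54 for H2AFV. It was 0.25 for H3F3A, 0.42 for H2AFY, 0.02 for H3F3B and −0.66 for H2AFX. Quartiles over all genes are not given for these centred differences.

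Transcript GC content moved with these ratios across the whole table. Over 20 bins of coding genes ordered by the GC content of the longest coding transcript, the median DAC log2 ratio in siLuc ran from −0.96 in the lowest bin to 1.23 in the highest. It ran from −0.74 to 0.85 for DAC in siStau1, from 0.44 to −0.23 for knockdown in DMSO and from 0.63 to −0.66 for knockdown under DAC. H2AFX, with a GC content of 66.4%, lay in the highest bin, and H3F3A, at 40.5%, in a low one. Relative to its bin, H2AFX had a DAC log2 ratio of 0.27 in siLuc and of −0.39 in siStau1, against 1.51 and 0.46 before centring. Its knockdown ratio under DAC was −0.28 relative to its bin, against −0.94. H2AFZ, at 46.6% GC, kept a ratio of −0.96 relative to its bin with DAC in siLuc. H2AFV and H3F3A, at 43.1% and 40.5% GC, had −0.57 and −0.54. Whether GC content has a part in the called changes was not tested.

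For H2AFZ, H2AFJ, H2AFY and H3F3B the centred value depends on which transcript gives the GC content. The longest coding transcript of H2AFJ has 62.9% GC, and its longest transcript of any type, a nonsense-mediated decay form, has 42.6%. The DAC log2 ratio of H2AFJ relative to its bin was 0.31 in siLuc with the first and 1.88 with the second, and 1.34 and 2.53 in siStau1. For H2AFY the siLuc value was −0.63 with the first and 0.25 with the second, and for H3F3B it was 0.37 and −0.28. The longest transcript of H2AFZ is a retained intron form with 49.1% GC. Its value was −0.96 and −1.15 in siLuc, and 0.04 and −0.15 in siStau1. The coding transcript was preferred after values under both choices had been seen, because the other forms are not those that encode the histone. For H2AFX, H2AFV and H3F3A the longest transcript is the coding one.

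**Figure D3:**
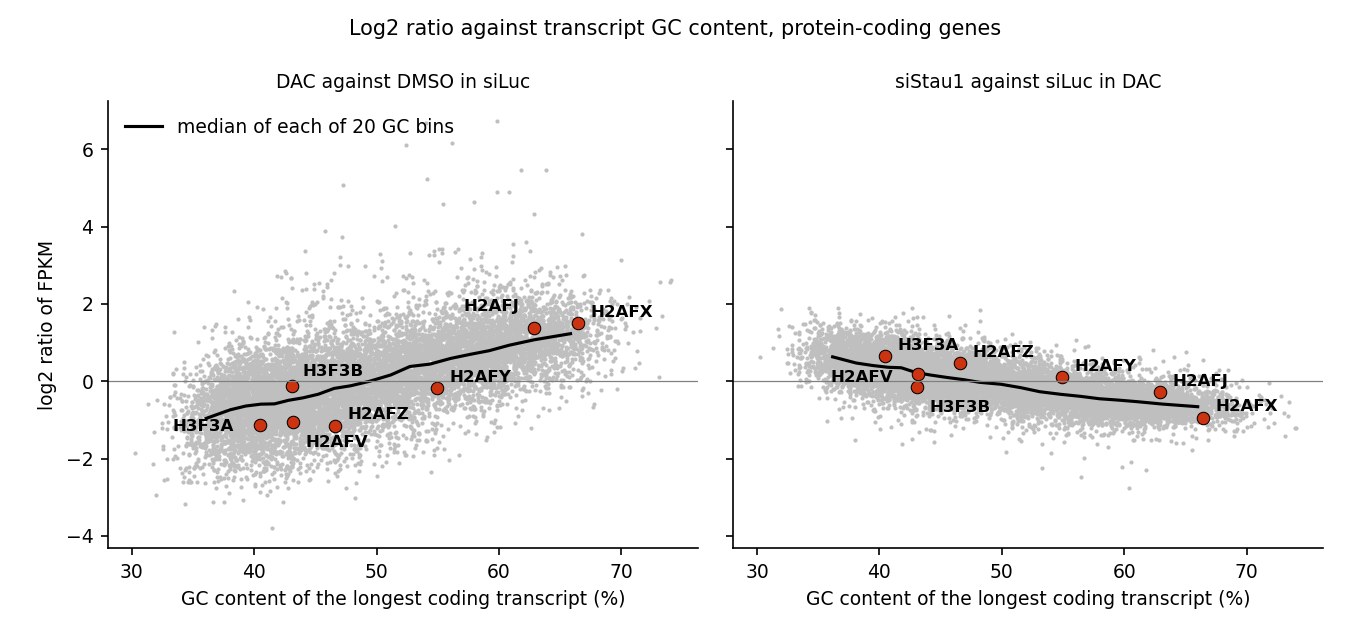
Log2 ratio of FPKM (vertical) against GC content of the longest coding transcript in percent (horizontal) for coding genes that reached an FPKM of 1 in each group compared, for DAC in siLuc (left) and siStau1 under DAC (right); the line joins the medians of 20 GC bins and red points are the variant genes. The line rises from −0.96 to 1.23 on the left and falls from 0.63 to −0.66 on the right, and H2AFX lies close to its end in both.

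The 2 genes of H2A.Z kept a similar balance. H2AFZ stood above H2AFV 6.0-fold, 5.67-fold, 5.36-fold and 6.84-fold. Their sum was 977, 446, 659.5 and 600.5 FPKM. The sum in siLuc DMSO was the highest and that in siLuc DAC the lowest. The H3.3 pair was less even: H3F3B stood above H3F3A 31.0-fold, 62.5-fold, 21.8-fold and 36.3-fold in the same order. In both siRNAs the ratio was higher with DAC, through lower H3F3A levels (37.0 to 16.9 and 44.7 to 26.6 FPKM, neither called). H3F3B held 96.9%, 98.4%, 95.6% and 97.3% of the H3.3 sum, so the sum itself followed H3F3B and ranged from 989.7 to 1186 FPKM.

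**Figure D4:**
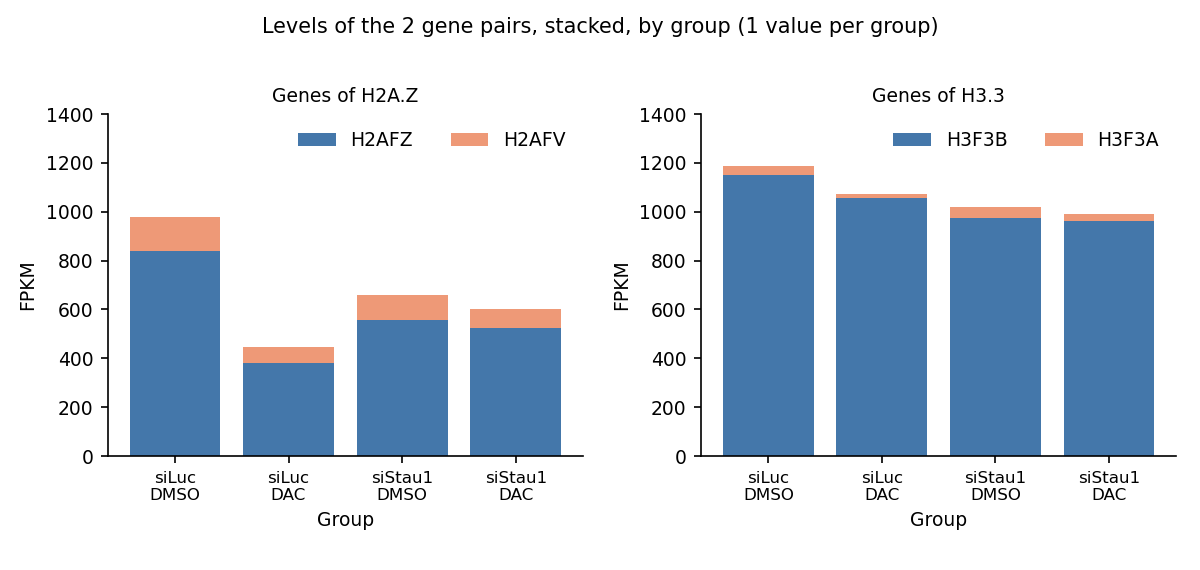
Stacked FPKM of H2AFZ and H2AFV (left) and of H3F3B and H3F3A (right) in the 4 groups, 1 value per group, on axes from 0. The H2A.Z sum goes from 977 in siLuc DMSO to 446 in siLuc DAC, while the H3.3 sum stays between 989.7 and 1186 and is nearly all H3F3B.

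Reads of near-identical copies limit how surely a level belongs to one gene. The table holds 15 pseudogenes named after the members, 6 each of H2AFZ and H3F3A, 2 of H3F3B and 1 of H2AFV. Of these, 5 reached an FPKM of 1 in any group and 4 were listed at 0 in all. The highest was H2AFZP3, at 6.65 FPKM in siLuc DMSO beside 838 for H2AFZ. H3F3AP6 was at 3.98 FPKM in siLuc DMSO and 1.13 in siLuc DAC, beside 37.0 and 16.9 for H3F3A. H3F3AP4 reached 1.88 and H2AFZP2 1.55. How the authors' counting shared such reads is not given in the sources used here. H3F3B overlaps UNK, a coding gene on the opposite strand, at 14.7 FPKM in siLuc DMSO and 10.5 in siLuc DAC, and H2AFZ, H2AFY and H3F3A overlap antisense genes under 1 FPKM. The kits were stranded, but whether the counting used strand is not stated.

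By position in GENCODE 29 on GRCh38, the genes lie on 7 chromosomes: H2AFZ (ENSG00000164032.11) at chr4:99948086-99950388 on the minus strand, H2AFX (ENSG00000188486.3) at chr11:119093854-119095467 on the minus strand, H2AFY (ENSG00000113648.16) at chr5:135333900-135399914 on the minus strand, and H2AFV (ENSG00000105968.18) at chr7:44826791-44848083 on the minus strand. H2AFJ (ENSG00000246705.4) lies at chr12:14774383-14778002 on the plus strand, H3F3A (ENSG00000163041.9) at chr1:226061851-226072001 on the plus strand, and H3F3B (ENSG00000132475.10) at chr17:75776434-75785893 on the minus strand. Their current symbols, in the order of the first sentence on them, are H2AZ1, H2AX, MACROH2A1, H2AZ2, H2AJ, H3-3A and H3-3B.

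H2AFX differed from the other members in a search for the letters of the histone stem-loop. Coding transcripts were searched over their whole length, on their own strand, for GGNNCTTNTNANNNCC, a pattern that covers the histone stem-loop. H2AFX was the 1 member of 7 with a match, in its longer transcript of 1614 bases. The match lies in the exon, 1060 bases before the transcript's end, and all 6 stem bases pair. It is shown because it is the mark of canonical histone mRNAs; capitals mark the match:
H2AFX: ccacaaaGGCCCTTTTAAGGGCCaccaccg
The pattern was found, at any position in a coding transcript, in 317 of 19677 coding genes (1.61%) and in 32 of 65 clustered HIST core genes. A poly(A) signal, AATAAA or ATTAAA in the last 60 bases of a coding transcript, was found in 6 of 7 members, H2AFY being the other, in 82.5% of coding genes and in 22 of 65 HIST core genes. H2AFX thus holds both, and is known to make both a stem-loop-ended and a polyadenylated mRNA, which 1 FPKM value per gene cannot tell apart. A match is a description of the letters, not of use. No match says only that the letters are not in the part searched. That part was the whole coding transcript for the stem-loop pattern and the last 60 bases for the poly(A) signal.

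The promoters of the 2 H2A.Z genes, whose uncentred ratios had the same sign in all 4 comparisons, and of H2AFX and H2AFJ, both at higher FPKM in DAC than in DMSO with either siRNA, are shown from RefSeq (GRCh38.p14), from 250 bases before to 50 bases after the start. Relative to GC bins of the coding transcript the signs of H2AFZ and H2AFV differ in 2 of those comparisons, DAC in siStau1 and siStau1 in DAC. With DAC in siStau1 their values are 0.04 and −0.03, but −0.15 and −0.12 by the longest transcript of any type. With siStau1 in DAC they are 0.42 and −0.03, and 0.55 and −0.05 by the longest transcript of any type. H2AFX is below 0 relative to its GC bin with DAC in siStau1. All 7 genes matched the RefSeq table. Capitals mark CCAAT, read as ATTGG on the other strand, and TATAAA. The windows are chr4:99950226-99950525 for H2AFZ, chr7:44848038-44848337 for H2AFV and chr11:119095416-119095715 for H2AFX, all on the minus strand, and chr12:14774155-14774454 for H2AFJ on the plus strand:
H2AFZ: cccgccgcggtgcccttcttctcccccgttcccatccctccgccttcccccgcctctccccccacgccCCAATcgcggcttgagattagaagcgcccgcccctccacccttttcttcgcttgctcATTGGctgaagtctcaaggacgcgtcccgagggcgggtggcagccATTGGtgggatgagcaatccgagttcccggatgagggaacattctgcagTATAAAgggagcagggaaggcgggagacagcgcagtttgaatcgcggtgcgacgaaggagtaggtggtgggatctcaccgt
H2AFV: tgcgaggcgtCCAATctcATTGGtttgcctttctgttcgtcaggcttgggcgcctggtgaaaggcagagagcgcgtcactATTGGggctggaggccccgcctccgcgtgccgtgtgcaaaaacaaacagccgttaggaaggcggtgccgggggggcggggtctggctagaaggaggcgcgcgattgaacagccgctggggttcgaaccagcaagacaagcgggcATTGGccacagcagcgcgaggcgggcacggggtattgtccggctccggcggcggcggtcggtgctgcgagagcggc
H2AFX: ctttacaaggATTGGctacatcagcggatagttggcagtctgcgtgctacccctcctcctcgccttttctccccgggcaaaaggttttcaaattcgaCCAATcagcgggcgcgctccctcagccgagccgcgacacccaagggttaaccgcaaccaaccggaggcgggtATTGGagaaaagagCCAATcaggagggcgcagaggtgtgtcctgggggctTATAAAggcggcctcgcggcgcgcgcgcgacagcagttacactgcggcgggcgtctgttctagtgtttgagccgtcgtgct
H2AFJ: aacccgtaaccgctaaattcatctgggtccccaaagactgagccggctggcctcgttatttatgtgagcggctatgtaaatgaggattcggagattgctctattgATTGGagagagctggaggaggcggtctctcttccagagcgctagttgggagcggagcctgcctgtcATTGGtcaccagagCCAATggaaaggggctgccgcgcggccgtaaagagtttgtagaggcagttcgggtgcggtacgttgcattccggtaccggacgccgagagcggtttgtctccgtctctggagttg
H2AFZ and H2AFJ hold 3 CCAAT matches each, and H2AFV and H2AFX 4 each. The H3F3B window also holds 4. CCAAT on either strand was found in 34.6% of 35116 promoter windows of this length. TATAAA, searched on both strands, is in the H2AFZ, H2AFX and H3F3B windows and in 11.5% of all. The windows of H2AFZ, H2AFV, H2AFX and H2AFJ hold 25, 32, 28 and 22 CG pairs, beside a median of 14 and quartiles of 4 and 28 over all windows. Among the members not shown, windows of H2AFY hold 42 and 10, those of H3F3A 16, 47, 43 and 44, and that of H3F3B 27. High CG counts are thus not particular to the genes shown. DNA methylation was not measured in these libraries.

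Genes that place, remove or read the variants were followed as lists. Over 69 genes for chaperones, exchange complexes, H2A.X phosphorylation and histone mRNA processing, 16 were called with DAC in siLuc, 3 higher and 13 lower, beside 8.71% higher and 4.78% lower over all genes. In siStau1 cells 10 were called, 1 higher and 9 lower, beside 4.56% and 2.89%. Knockdown in DMSO called 0, beside 0.799% of all genes, and 1 had an unadjusted p under 0.05, beside 4.30%. Knockdown under DAC called 2, both higher, beside 0.434% higher and 0.469% lower over all genes. The median log2 ratio of the 69 genes with DAC was −0.37 in siLuc and −0.21 in siStau1, beside 0.08 and 0.02 over all genes, and −0.26 and −0.19 relative to GC bins.

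For H3.3 deposition, 2 of 9 genes were called with DAC in siLuc, both lower, beside 8.71% higher and 4.78% lower over all genes. ATRX, which with DAXX places H3.3 at repeats and telomeres, fell from 26.1 to 7.60 FPKM in siLuc (log2 ratio −1.76, deposited q = 0.00293) and from 45.1 to 18.5 FPKM in siStau1 (−1.28, deposited q = 0.0326). It was higher in siStau1 than in siLuc under DAC (1.27, deposited q = 0.0343). Relative to its GC bin these ratios of ATRX were −0.80, −0.54 and 0.64. DEK, a chromatin protein that binds H3.3, fell from 112 to 30.1 FPKM in siLuc (−1.89, deposited q = 0.00162) and from 176 to 60.3 in siStau1 (−1.54, deposited q = 0.0221), with −1.30 and −1.07 relative to its GC bin. HIRA was at 8.79 and 7.51 FPKM with DMSO and DAC in siLuc (deposited q = 0.934), and DAXX at 53.6 and 53.8 (deposited q = 0.996). The list's median was 0.00 in siLuc and 0.10 in siStau1, and −0.44 and −0.38 relative to GC bins. Among general H3-H4 chaperones, 2 of 7 fell with DAC in siLuc, beside 4.78% of all genes: NASP, which holds soluble H3-H4, from 248 to 104 FPKM (−1.25, deposited q = 0.00525), and HAT1, which acetylates new H4, from 56.1 to 14.1 FPKM (−1.99, deposited q = 0.00162). HAT1 fell in siStau1 as well, from 90.0 to 31.0 FPKM (−1.54, deposited q = 0.00732). Relative to GC bins the siLuc ratios were −1.07 for NASP and −1.03 for HAT1, and the siStau1 ratio of HAT1 was −0.80.

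For H2A.Z exchange, 6 of 17 genes were called with DAC in siLuc, 1 higher and 5 lower, beside 8.71% higher and 4.78% lower over all genes. YEATS4, a subunit of the H2A.Z-loading complexes, fell from 24.8 to 3.79 FPKM in siLuc (−2.68, deposited q = 0.00162) and from 34.5 to 9.37 FPKM in siStau1 (−1.87, deposited q = 0.00162), with −2.09 and −1.40 relative to its GC bin. ANP32E, a chaperone that removes H2A.Z, fell from 96.7 to 28.4 FPKM in siLuc (−1.77, deposited q = 0.0101) and stood at 87.6 and 60.7 in siStau1 (deposited q = 0.515), and its siLuc ratio was −0.81 relative to its GC bin. ACTR6 (−1.50, deposited q = 0.0326), ACTL6A (−1.52, deposited q = 0.0408) and MORF4L1 (−1.25, deposited q = 0.0464), further subunits, also fell in siLuc, with −0.90, −1.03 and −0.67 relative to their GC bins. RUVBL2, an ATPase shared by these complexes, rose from 163 to 318 FPKM in siLuc (0.96, deposited q = 0.0383) and from 113 to 228 in siStau1 (1.01, deposited q = 0.0372), and its ratios relative to its GC bin were 0.03 and 0.31. The catalytic subunits SRCAP, at 3.62 and 14.3 FPKM in siLuc (deposited q = 0.463), and EP400, at 3.77 and 6.81 (deposited q = 0.362), were not called. The list's median in siLuc was 0.43, and −0.23 relative to GC bins, so its sign turned.

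Of 7 H2A-H2B chaperones, 3 fell with DAC in siLuc and none rose, beside 8.71% higher and 4.78% lower over all genes. NPM1, a nucleolar chaperone, fell from 2139 to 529 FPKM in siLuc (−2.02, deposited q = 0.00162) and from 2785 to 1045 in siStau1 (−1.41, deposited q = 0.0241), and was higher in siStau1 than in siLuc under DAC (0.98, deposited q = 0.0314). NAP1L1 fell in siLuc (−1.33, deposited q = 0.00293) and in siStau1 (−1.15, deposited q = 0.0296), and SUPT16H, a subunit of FACT, fell in siLuc (−0.97, deposited q = 0.0201). Relative to GC bins the siLuc ratios were −1.52 for NPM1, −0.59 for NAP1L1 and −0.54 for SUPT16H. The siStau1 ratios were −1.07 for NPM1 and −0.55 for NAP1L1, and the knockdown ratio of NPM1 under DAC was 0.76. Of 14 genes for H2A.X phosphorylation and its readers, none was called in any of the 4 comparisons, beside 13.5% of all genes with DAC in siLuc, 7.46% with DAC in siStau1, 0.799% with knockdown in DMSO and 0.904% with knockdown under DAC. An unadjusted p under 0.05 was found for 4 with DAC in siLuc, beside 28.9% of all genes, a share like that of the list. It was found for 4 with DAC in siStau1 (19.0% of all genes), 1 with knockdown in DMSO (4.30%) and 0 with knockdown under DAC (6.95%). The kinases ATM (21.4 and 15.1 FPKM, deposited q = 0.696), ATR (11.5 and 8.84, deposited q = 0.671) and PRKDC (63.3 and 51.2, deposited q = 0.719) had log2 ratios between −0.50 and −0.30 with DAC in siLuc, and of 0.14, 0.22 and 0.03 relative to their GC bins, so all 3 turned sign. The list's median turned too, from −0.34 to 0.08. H2AFX RNA was called there and the RNAs of its kinases were not, and that difference itself was not tested.

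Of 15 genes for processing of stem-loop histone mRNAs, 3 were called with DAC in siLuc, 2 higher and 1 lower, beside 8.71% higher and 4.78% lower over all genes. CPSF1 (1.40, deposited q = 0.00632) and SYMPK (1.26, deposited q = 0.0126), both of the cleavage machinery, rose, and the exonuclease ERI1 fell (−1.80, deposited q = 0.00162). CPSF1, SYMPK and ERI1 had 0.32, 0.67 and −1.16 relative to their GC bins. In siStau1 cells ERI1 (−1.46, deposited q = 0.00162), CASP8AP2 (−1.74, deposited q = 0.00162) and SLBP, the stem-loop binding protein (−1.28, from 190 to 78.01 FPKM, deposited q = 0.0455), fell, beside 2.89% of all genes lower, and had −0.92, −1.14 and −1.43 relative to their GC bins. In siLuc, SLBP was at 113 and 57.3 FPKM (deposited q = 0.106) and NPAT, the activator of HIST genes, at 10.2 and 3.27 (deposited q = 0.127).

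Among 14 other variant genes, 3 of the 10 tested were called with DAC in siLuc, 2 higher and 1 lower, beside 8.71% higher and 4.78% lower over all genes. H1F0, a replacement linker histone, fell from 181 to 88.9 FPKM (−1.03, deposited q = 0.0173). It also fell with knockdown in DMSO, to 90.1 FPKM (−1.01, deposited q = 0.0187), and was at 93.1 in siStau1 DAC. Its 2 called ratios were −1.41 and −0.76 relative to its GC bin. The germ cell genes HIST1H2AA and H2BFWT, both listed at 0 in siLuc DMSO, were at 19.8 and 1.01 FPKM in siLuc DAC (deposited q = 0.00162 for both). H2AFY2, the second macroH2A gene, was at 40.0, 13.8, 21.3 and 17.5 FPKM in the 4 groups and was not called (deposited q = 0.0582 for DAC in siLuc). CENPA, the centromeric H3, was at 26.8 and 14.2 FPKM in siLuc (deposited q = 0.6).

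The clustered HIST core genes, 65 in all, 3 of them also in the list of other variants, had 16 called higher and 0 lower of 64 tested with DAC in siLuc, and 10 higher and 0 lower of 64 in siStau1. Over all genes 8.71% were higher and 4.78% lower in siLuc, and 4.56% and 2.89% in siStau1. Under DAC, knockdown gave 0 higher and 5 lower of 64, beside 0.434% and 0.469% of all genes. Of these 64, 38 had an unadjusted p under 0.05, beside 6.95% of all genes. The median HIST log2 ratio for that comparison was −0.79 over 61 genes, beside −0.11 over all genes, and −0.49 relative to GC bins. In DMSO, knockdown gave 0 higher and 1 lower of 54, and 16 had an unadjusted p under 0.05, beside 4.30% of all genes. The median there was −0.40 over 49 genes, and −0.24 relative to GC bins. The median HIST log2 ratio with DAC was 0.55 over 51 genes in siLuc and 0.18 over 50 in siStau1, and −0.07 and 0.09 relative to GC bins, so the siLuc median turned sign. The replacement genes held both directions in siLuc, 1 higher and 1 lower called. The 2 members above 1 on the log2 scale, H2AFX and H2AFJ, lay above the median of every HIST class, and H2AFZ, H2AFV and H3F3A lay below the lowest HIST gene shown. Neither held relative to GC bins of the coding transcript. There H2AFX and H2AFJ, at 0.27 and 0.31, lay below the H2B class median of 0.36. They still lay above the H2A, H3 and H4 medians of −0.11, −0.08 and 0.14. By the GC content of its longest transcript of any type, H2AFJ was at 1.88. H2AFZ, H2AFV and H3F3A, at −0.96, −0.57 and −0.54 by the coding transcript, lay above the lowest HIST gene at −1.07.

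**Figure D5:**
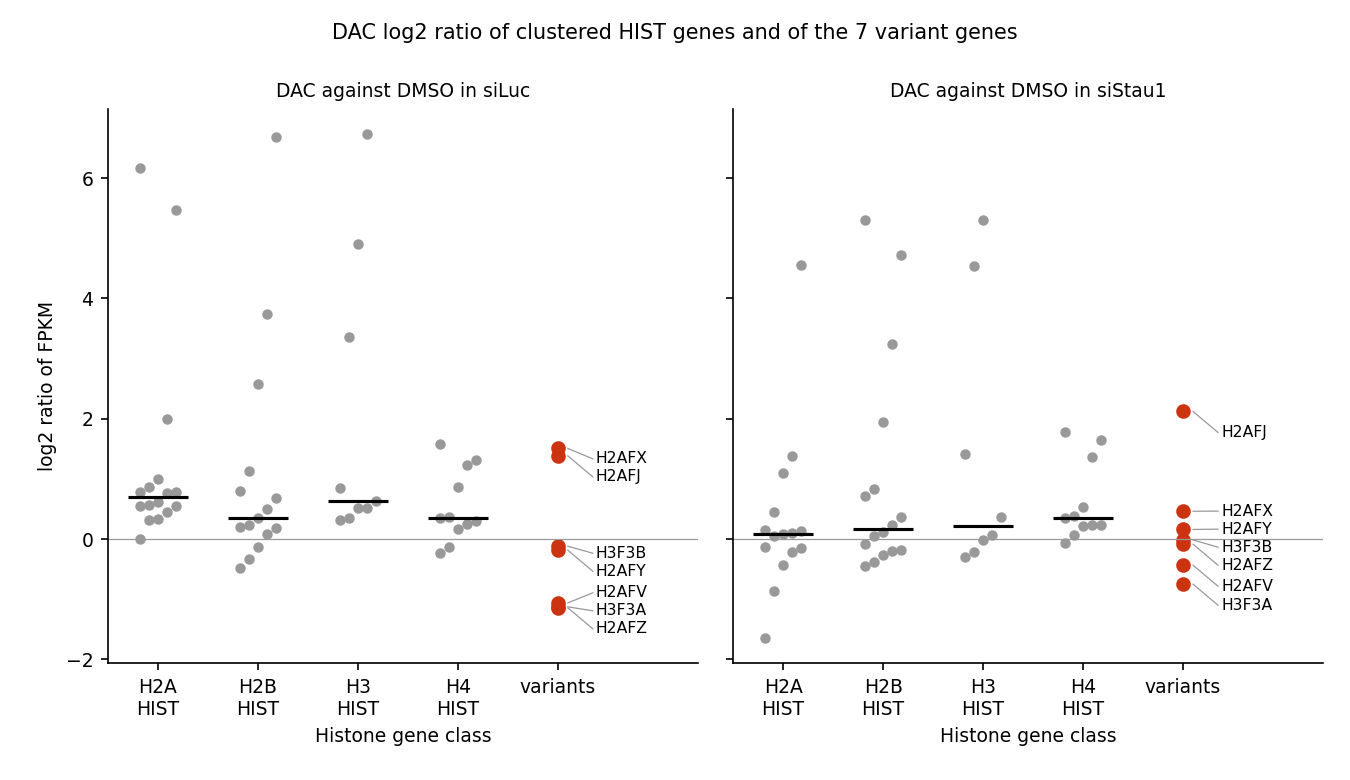
DAC log2 ratio of FPKM in siLuc (left) and siStau1 (right) for clustered HIST genes that reached an FPKM of 1 in each group compared (grey, 51 and 50 genes; bars are class medians) and for the 7 variant genes (red). In siLuc the variants split into H2AFX and H2AFJ at 1.51 and 1.38 and H2AFV, H3F3A and H2AFZ between −1.14 and −1.06; in siStau1 only H2AFJ, at 2.12, stands beyond 1.

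Genes with the most similar pattern were sought among 10685 coding genes by the root mean square difference of log2 levels over the 4 groups, each gene centred on its mean. For H2AFZ, MALSU1 (0.03) was among them, and for H2AFV they were RPL35A (0.03) and UMAD1 (0.03). For H2AFX they were SLC6A17 (0.04) and NME3 (0.05), and for H2AFJ BIK (0.07) and AJUBA (0.08). H3F3A was nearest to SEPT10 and TRMT13, H3F3B to COPZ1 and PTPMT1, and H2AFY to ELP2 and SYNE4. Within the set, H2AFY and H3F3B were the closest members, 0.09 apart, with 210 genes nearer to H2AFY and 239 nearer to H3F3B. H2AFZ and H2AFV were 0.13 apart, with 89 genes nearer to H2AFZ and 153 nearer to H2AFV. With 4 values a gene, such matches are a description.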

How the data were processed

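Total RNA of 8 libraries, 2 per group, was sequenced by the authors after ribosomal RNA depletion with stranded kits, per the labels' protocols. The deposited table gives FPKM per group and a p-value and q-value per comparison, in the layout of Cuffdiff, per the file headers. The submitters' processing notes name HISAT2 2.1.0 and Cuffdiff 2.2.1 and the build hg38, with no role or order. Of 11 libraries, the 3 of double-stranded RNA were not used here. The deposited q-value is the Benjamini-Hochberg value over 102180 tests of 6 comparisons (largest gap on recomputing 5.27e-07). Counts per library were not used here, so the planned count tests, left-out libraries and replicate block gave way to the deposited calls.

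From the FPKM values, log2 ratios with a pseudocount of 0.1 were computed in Python 3.11.15 and centred on 20 GC bins of coding genes that reached an FPKM of 1; adjustment and centring were tested on simulated data. Genes named are the 7 members, up to 6 called genes a list and preset key genes, with 2 similar genes a member, 1 of which is not reported here. Members and lists were chosen with earlier results of these data known, and the searches of promoters, 3′ ends and pseudogenes were added after the files were seen.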

Additional observations from a re-analysis of the deposited data

How the results depend on the processing

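With DAC in siLuc, 2 members were called at the deposited q-value, beside 13.5% of all genes, and 5 at an unadjusted p under 0.05, beside 28.9%. Adjustment within the comparison called 3, H2AFJ being added. The share of all genes called in that way is not given here, so the added call is no result about the members. With DAC in siStau1 the 0 called, beside 7.46% of all genes, became 1, H2AFJ, at an unadjusted p, beside 19.0%. For knockdown under DAC there was 1 call, H2AFX, beside 0.904% of all genes. It became 0 at a q-value under 0.01, 0 when adjusted within the comparison and 0 when genes under an FPKM of 1 were also left out. Knockdown in DMSO gave 0 under each of these settings, beside 0.799% of all genes at the deposited q-value and 4.30% at an unadjusted p. Of the 28 log2 ratios of members, pseudocounts of 0 or 1 and centring on the median of all genes turned no sign, and scaling to the coding sum turned 2. Centring in GC bins moved 7 of 28 by 0.5 or more, a limit set after values were seen, and turned the sign of 8; with the longest transcript of any type, an alternative chosen after seeing the data, it moved 5 and turned 6. None of the turned signs belonged to a called ratio. Both called ratios of H2AFX were among the 7 moved with the coding transcript. They went from 1.51 to 0.27 with DAC in siLuc and from −0.94 to −0.28 with knockdown under DAC. The called ratio of H2AFZ went from −1.14 to −0.96. The cause of the moves and turned signs was not tested. No paired analysis was possible because the table holds 1 value per group and none per library, and for the same reason no replicate could be left out. Depth is unknown, so what low levels such as that of H2AFJ can show is not known.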
